A study of Mus musculus with 6 samples.

Results

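The 9 genes described here act in apical polarity and in the membrane traffic that supplies the polarized surfaces of epithelial cells. They are the polarity genes Crb3, Pard6b and Llgl2, the sorting and trafficking genes Rab25, Ap1m2, Tom1l1, Mal2 and Tmem30b, and Lsr of the tricellular junction. They are 9 of 18193 genes on the arrays and are read by 14 of 45037 probe sets, namely every probe set annotated to a single one of these symbols. Of these, 6 were taken for their function, with results of these arrays known, and 3 (Tom1l1, Mal2 and Tmem30b) were chosen by their lower intensities in DKK + dox than in DKK. The difference between DKK + dox and DKK is therefore given for the 9 genes as a description, with no test.

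The cells were A2.Snail, a mouse embryonic stem cell (ESC) line made from A2lox cells by targeting a Snail transgene that is expressed on addition of doxycycline (dox). All cultures grew as embryoid bodies in 10% serum with DKK1, an inhibitor of Wnt signaling. DKK + dox cultures received dox at 250 ng/mL on day 2 and DKK cultures did not. RNA was taken 6, 12 and 24 hours after dox (days 2.25, 2.5 and 3) and hybridised to Affymetrix arrays, 1 array for each of the 6 conditions, so no value has a replicate. Dox in cells without the transgene was not analysed here, and an effect of dox and an effect of Snail cannot be told apart. Each array measured a whole culture, in which fewer cells that express a gene and less RNA per cell cannot be told apart. How many ESC clones the line stands for is not given in the sources used here.

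Epithelial cells keep an apical surface apart from their basolateral surface. The Crumbs and Par complexes mark the apical side, the Lgl and Scribble proteins mark the basolateral side, and the groups exclude each other through phosphorylation by atypical protein kinase C. Recycling endosomes with Rab11-family GTPases, the AP-1 adaptor and MAL-type tetraspan proteins carry membrane proteins to the correct side. The epiblast is such a polarized epithelium, and its cells lose this organization when they pass through an epithelial-to-mesenchymal transition (EMT), for which Snail, a zinc finger repressor, is best known. Snail proteins bind the E-box CACCTG, which reads CAGGTG on the other strand.

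RefSeq promoter windows (build GRCm38.p6, 250 bases before to 50 after a transcription start) were listed for 7 of the 9 genes, not for Llgl2 and Mal2, and all 7 held at least 1 E-box. Crb3, Ap1m2, Tmem30b and Lsr each held 4, Pard6b and Rab25 each held 2, and Tom1l1 held 1. In Crb3 the last of the 4 begins 25 bases after the start and is not in the stretch printed below. The stretches below are those of the genes with 2 or more boxes. The boxes are in capitals, both orientations are marked, and every stretch ends before the transcription start and reads toward it on the strand of the gene. Tmem30a, the ubiquitous paralog of Tmem30b, is shown over the same distances from its own start as a stretch with 0 boxes.
Crb3: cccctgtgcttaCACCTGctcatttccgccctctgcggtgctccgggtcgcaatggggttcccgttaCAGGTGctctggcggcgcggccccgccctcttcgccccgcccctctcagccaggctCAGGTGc
Pard6b: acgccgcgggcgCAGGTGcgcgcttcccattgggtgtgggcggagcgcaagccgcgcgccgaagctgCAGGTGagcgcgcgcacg
Rab25: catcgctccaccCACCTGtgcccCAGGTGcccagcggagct
Ap1m2: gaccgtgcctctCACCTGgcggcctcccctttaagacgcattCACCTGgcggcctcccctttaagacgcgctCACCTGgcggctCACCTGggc
Tmem30b: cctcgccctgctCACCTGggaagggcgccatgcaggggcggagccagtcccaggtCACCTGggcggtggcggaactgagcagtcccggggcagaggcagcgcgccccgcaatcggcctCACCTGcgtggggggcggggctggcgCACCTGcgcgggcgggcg
Lsr: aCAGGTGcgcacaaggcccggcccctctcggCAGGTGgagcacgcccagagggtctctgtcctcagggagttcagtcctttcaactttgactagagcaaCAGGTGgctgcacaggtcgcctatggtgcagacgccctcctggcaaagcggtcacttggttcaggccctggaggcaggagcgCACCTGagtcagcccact
Tmem30a: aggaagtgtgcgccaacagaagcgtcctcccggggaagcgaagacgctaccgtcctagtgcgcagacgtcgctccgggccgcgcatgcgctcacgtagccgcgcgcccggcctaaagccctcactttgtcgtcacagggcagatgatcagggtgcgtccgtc
These stretches are chr17:57062071-57062200 (plus strand) for Crb3, chr2:168080851-168080935 (plus strand) for Pard6b and chr3:88548315-88548355 (minus strand) for Rab25. They are chr9:21312334-21312426 (minus strand) for Ap1m2, chr12:73546458-73546619 (minus strand) for Tmem30b, chr7:30973521-30973719 (minus strand) for Lsr and chr9:79793493-79793654 (minus strand) for Tmem30a. In Ap1m2 a run of 28 bases that holds a box occurs 2 times, beginning 82 and 52 bases before the start. Its 4 boxes all lie within 81 bases of the start and all read CACCTG on the strand of the gene, as do the 4 boxes of Tmem30b, whereas Crb3, Rab25 and Lsr hold both orientations.

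Of all 32851 windows in the RefSeq table, 20.2% held 1 or more E-boxes, 2.88% held 2 or more and 0.0548% (18 windows) held 4 or more. Counted by gene, 17 of 27025 genes had a window with 4 or more boxes, and 4 of these 17 are Crb3, Ap1m2, Tmem30b and Lsr. The windows of the 7 genes had a GC content of at least 58.3% wherever they held a box. Among all 11074 windows at or above that content the share with 2 or more boxes was 3.13%. Counted by gene it was 3.32% of 27025 genes, against 6 of the 7 genes. The 7 genes were chosen for lower intensities in DKK + dox or with results known. Among all genes in the test described below, 8.51% of those that fell and 3.17% of those that did not pass held 2 or more. The share in the 7 genes was not tested. Among 13 paralogs with a window, 3 held a single box (Pard6a, Ildr1 and Ildr2) and 0 held 2 or more. No window was listed for Ap1m1, Pard6g and Tmem30c, so their promoters were not searched. The motif AACNNGTT of grainyhead-like factors, searched on both strands, was present in the Rab25 window alone among the 7 genes, and in 4.2% of all windows. A match is a run of letters in a window, and no binding was measured on these samples.

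**Figure D1:**
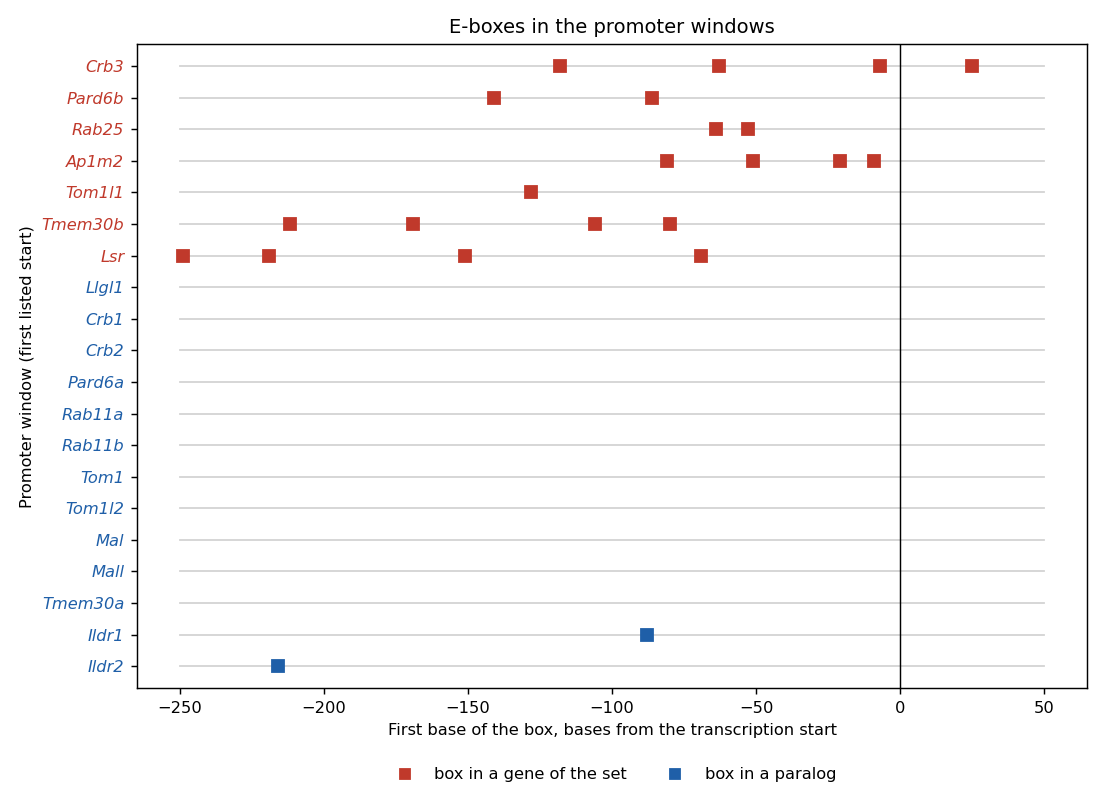
Positions of E-boxes (squares) in RefSeq promoter windows of the genes described (red) and of their paralogs (blue), where a window was listed. The x axis gives bases from the transcription start and each line is the first listed window of a gene. The red lines carry between 1 and 4 boxes each, and of the blue lines only Ildr1 and Ildr2 carry 1.

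A difference is that of DKK + dox minus DKK after log2(intensity + 20.6), 20.6 being the 25th percentile of the values on the arrays. The added constant makes the changes of dim genes look smaller than they are. An intensity of 37.2, the 40th percentile, is used as the low-signal limit. All 9 genes exceeded it on at least 1 array and so belong to the 14755 genes that passed the filter on low signal.

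Crb3 encodes the small transmembrane Crumbs protein that sets up the apical domain of mammalian epithelia. Its intensity was 177.6, 103.2 and 105.6 in DKK + dox at 6, 12 and 24 hours, against 247.9, 278.4 and 371.6 in DKK. The arms drew apart with time, and every DKK + dox array was below every DKK array. The differences were -0.44, -1.27 and -1.64. The other 2 probe sets of Crb3 ran the same way, with differences of -0.60, -1.81 and -2.27 for the one and -0.58, -1.06 and -1.88 for the other.

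Pard6b encodes a Par6 protein, the adaptor that joins Cdc42 to atypical protein kinase C at the apical membrane. It read 140.6, 111.9 and 141.7 in DKK + dox, against 286.8, 370.5 and 400.2 in DKK, with differences of -0.93, -1.56 and -1.37. The arms were already apart at 6 hours, and the gap was widest at 12 hours. Its other probe set gave -1.20, -1.94 and -1.29, with the same widest time.

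Llgl2 encodes a lethal giant larvae homolog, the basolateral partner that atypical protein kinase C phosphorylates. It read 117.6, 65.1 and 66.4 in DKK + dox, against 161.2, 104.5 and 101.9 in DKK. Unlike the apical genes it was lower at 24 than at 6 hours in both arms, so the 6 hour DKK + dox array lay above the 12 and 24 hour DKK arrays. Its differences were -0.40, -0.55 and -0.50.

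**Figure D2:**
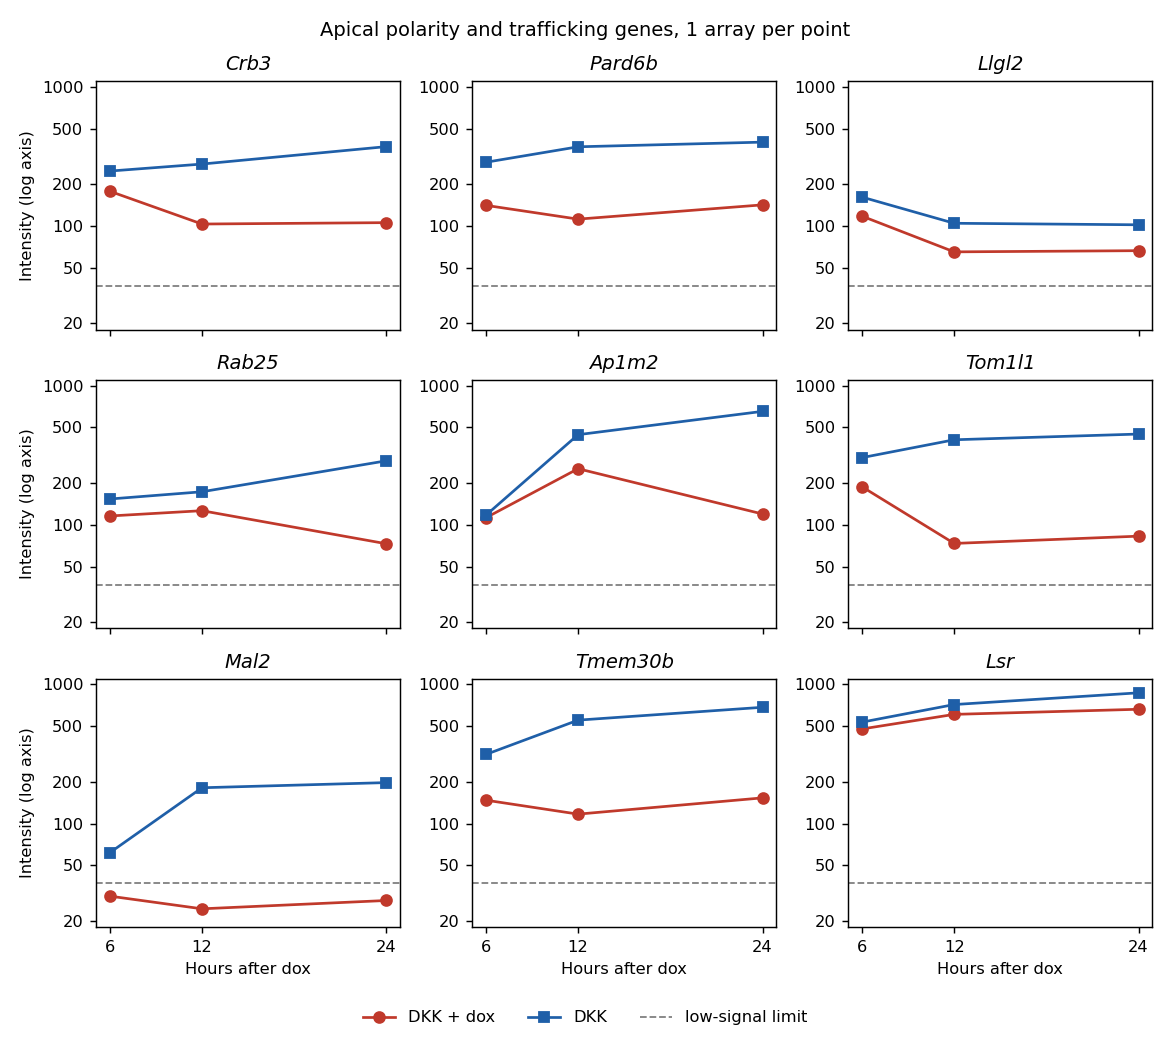
Intensity (log axis) against hours after dox for each of the 9 genes, DKK + dox in red circles and DKK in blue squares, 1 array per point, with the low-signal limit of 37.2 dashed. The red points lie below the blue ones at each time, by least at 24 hours in Lsr and Llgl2, and Mal2 lies under the limit in all 3 DKK + dox arrays.

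Rab25 encodes the epithelial member of the Rab11 GTPases, which act on apical recycling endosomes. Its intensity was 115.6, 126.2 and 73.0 in DKK + dox, against 153.1, 172.6 and 288.2 in DKK. Most of its difference appeared between 12 and 24 hours, with values of -0.35, -0.40 and -1.72, and over that interval it was lower by 0.65 in DKK + dox and higher by 0.68 in DKK on the log2 scale.

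Ap1m2 encodes the mu1B subunit, which makes the AP-1B adaptor of epithelial cells and sorts cargo to the basolateral side. It read 112.2, 252.8 and 119.5 in DKK + dox, against 117.0, 444.0 and 653.0 in DKK. The arms were close together at 6 hours, both were higher at 12 hours, and only DKK remained high at 24 hours. The differences were -0.05, -0.77 and -2.27.

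Tom1l1 encodes a VHS domain protein that binds Src family kinases and the endosomal sorting machinery. Its probe set with the highest mean read 187.6, 73.4 and 82.8 in DKK + dox, against 303.6, 408.1 and 448.6 in DKK, with differences of -0.64, -2.19 and -2.18. The whole of the wider gap was present at 12 hours. Its other probe set was dim, at 63.7, 38.8 and 45.4 in DKK + dox against 75.1, 44.8 and 57.3 in DKK, and differed by only -0.18, -0.14 and -0.24, so the probe sets of this gene disagree in size. RefSeq lists a transcription start of Tom1l1 at a distance from the window above, and which transcripts each probe set reads was not analysed here.

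Mal2 encodes a tetraspan raft protein of the MARVEL family, required for transcytosis to the apical surface in human hepatoma cells. It read 30.1, 24.4 and 28.0 in DKK + dox, all under the low-signal limit, against 61.7, 180.9 and 197.0 in DKK, all above it. Taking the limit as the level in DKK + dox, its intensity in DKK was at least 1.66, 4.86 and 5.29 times as high at the 3 times. On the log2 scale the measured differences were -0.70, -2.16 and -2.16.

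Tmem30b encodes CDC50B, a beta subunit that P4-ATPase lipid flippases need to leave the endoplasmic reticulum. It read 147.3, 116.9 and 153.0 in DKK + dox, against 313.8, 553.8 and 685.0 in DKK. The DKK + dox arrays stayed within a narrow range while the DKK arrays were higher at each later time. The differences were -0.99, -2.06 and -2.02.

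Lsr encodes angulin-1, which marks the corners where 3 cells meet and recruits tricellulin there. It read 478.5, 609.3 and 663.0 in DKK + dox, against 535.7, 716.9 and 870.5 in DKK, with differences of -0.16, -0.23 and -0.38. The gene was higher at 24 than at 6 hours in both arms, and the ranges of the arms overlapped. Its 4 E-boxes stand beside the smallest 24 hour difference of the 9 genes. With the same number of boxes Ap1m2, Tmem30b and Crb3 differed by -2.27, -2.02 and -1.64. Rab25 and Pard6b with 2 boxes differed by -1.72 and -1.37, and Tom1l1 with 1 by -2.18. Tmem30b and Tom1l1 were chosen for their lower intensities in DKK + dox, and a relation of box number to difference was not tested. A second probe set of Lsr was under the limit on all 6 arrays and gives no usable level.

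**Figure D3:**
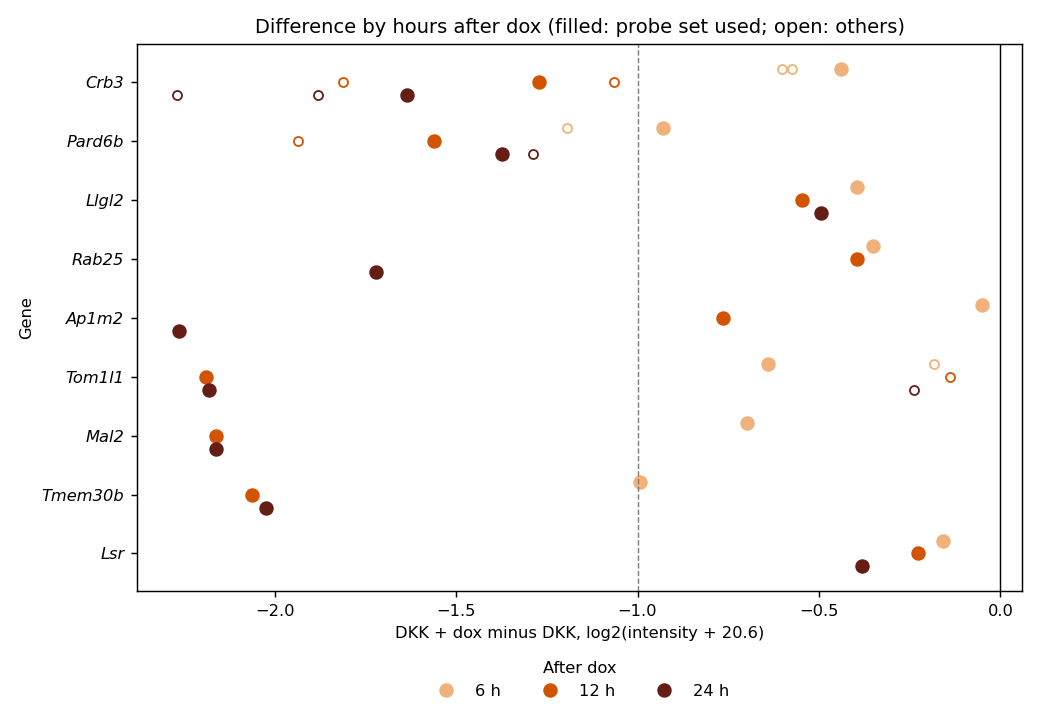
DKK + dox minus DKK for each gene as log2(intensity + 20.6), at 6 hours (pale), 12 hours (orange) and 24 hours (dark); filled points are the probe set with the highest mean, open points the others above the low-signal limit on some array, and the dashed line marks a 2-fold difference. All points lie left of 0, and filled points pass the dashed line for 0, 5 and 7 genes at the 3 times.

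Over the set, all 9 genes were lower in DKK + dox at each time, as the choice of members largely fixes. The number at least 2-fold lower (a log2 difference of -1 or less) was 0 of 9 at 6 hours, 5 of 9 at 12 hours and 7 of 9 at 24 hours. Over all 14755 genes the same shares were 0.468% at 6 hours, 2.25% at 12 hours and 2.2% at 24 hours, and nothing is read from that contrast, on which 3 genes were chosen and which was known when the others were taken. The median difference was -0.44, -1.27 and -1.72, where the medians of all genes tested were -0.04, 0.03 and 0.02. Every DKK + dox array was below every DKK array in 6 of 9 genes (not in Llgl2, Ap1m2 and Lsr), against 7.09% of all genes, and nothing is read from this either. The order in time differed among the genes. Tom1l1, Tmem30b, Pard6b and Llgl2 had reached their 24 hour difference or more by 12 hours, whereas Rab25 and Ap1m2 reached most of it only at 24 hours. For Mal2, under the limit in DKK + dox, only the bounds above can be compared.

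Within the arms, 8 of 9 genes were higher at 24 than at 6 hours in DKK, with a median change of 0.68, where the median of all genes was -0.08. Ap1m2 changed by 2.29, Mal2 by 1.40 and Tmem30b by 1.08, so 3 of 9 were at least 2-fold higher, against 2.51% of all genes. Llgl2 was the exception at -0.57. In DKK + dox, 4 of 9 genes were higher and 5 lower at 24 than at 6 hours, with a median of -0.06, and 0 of 9 were at least 2-fold higher, against 5.94% of all genes. That median is the value of Mal2, which is counted as lower though it was under the low-signal limit on all DKK + dox arrays. Its direction there cannot be read. Tmem30b, Ap1m2 and Pard6b changed by 0.05, 0.08 and 0.01 there, and Tom1l1, at -1.01, was the only gene at least 2-fold lower. Both arms share arrays with the contrast that chose the genes, each time is 1 array, and no test was made.

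The nearest family members of the 9 genes were tested for a DKK + dox minus DKK difference that grows in proportion to hours after dox, with limma over all 14755 genes and Benjamini-Hochberg adjustment, and a gene is said to have risen or fallen at an adjusted p under 0.05. The fitted difference is read off the trend at 24 hours, and the fit rests on 6 arrays with 2 residual degrees of freedom and no replicate cultures. Of all genes, 6.38% fell and 8.32% rose. Of 15 paralogs measured, 0 fell, 4 rose and 11 did not pass the test, counts too small to set against those shares.

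Ap1m1, which encodes the mu1A subunit of the ubiquitous AP-1A adaptor, rose. It read 524.7, 609.8 and 674.4 in DKK + dox, against 473.3, 319.0 and 251.2 in DKK, with a fitted difference of 1.40 ± 0.15 (SE, adjusted p = 0.00245 from limma). In DKK, where Ap1m2 was higher at each later time, Ap1m1 was lower at each later time, and at 24 hours the differences of the pair were -2.27 for Ap1m2 and 1.36 for Ap1m1. Tmem30a, the CDC50A subunit of most flippases, rose as well. It read 784.6, 1094.2 and 1168.6 in DKK + dox, against 730.1, 814.7 and 784.0 in DKK, with a fitted difference of 0.61 ± 0.10 (SE, adjusted p = 0.011 from limma).

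Llgl1, the other lethal giant larvae homolog, read 1068.4, 1197.0 and 1465.7 in DKK + dox and 980.1, 933.6 and 1076.7 in DKK. It rose by a fitted 0.49 ± 0.10 (SE, adjusted p = 0.0172 from limma). Rab11b, a broadly expressed Rab11 GTPase, rose by 0.31 ± 0.07 (SE, adjusted p = 0.0334 from limma), a call that was lost with arrays centred on their medians (0.0573), with the mean of its probe sets (0.771) and when any 1 of the 3 times was left out. Without the 24 hour pair Tmem30a and Llgl1 were at 0.75 and 0.66 and no longer called (adjusted p = 0.092 and 0.093 from limma), and Llgl1 was also lost without the 6 hour pair (0.0501). Rab11a, at a fitted 0.26, did not pass (adjusted p = 0.0839 from limma). Neither did the Par6 paralogs Pard6g and Pard6a, at 0.68 and -0.07 (adjusted p = 0.0601 and 0.822 from limma).

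Among the remaining paralogs, the VHS proteins Tom1 and Tom1l2 gave measured differences of -0.01 and 0.49 at 24 hours, and Tmem30c gave -0.02. Crb1, Mal, Mall, Ildr1 and Ildr2 did not exceed the low-signal limit on 1 to 4 arrays each, and the expression of Crb2 was not analysed here. At 24 hours the difference of the gene described was below that of its paralog in 14 of 15 pairs, and in 10 of 10 pairs whose paralog was above the limit on all arrays. The exception was Lsr at -0.38 beside Ildr1 at -0.94. The difference within pairs was not tested, since 3 of the 9 genes were chosen for low values and the others with results known.

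**Figure D4:**
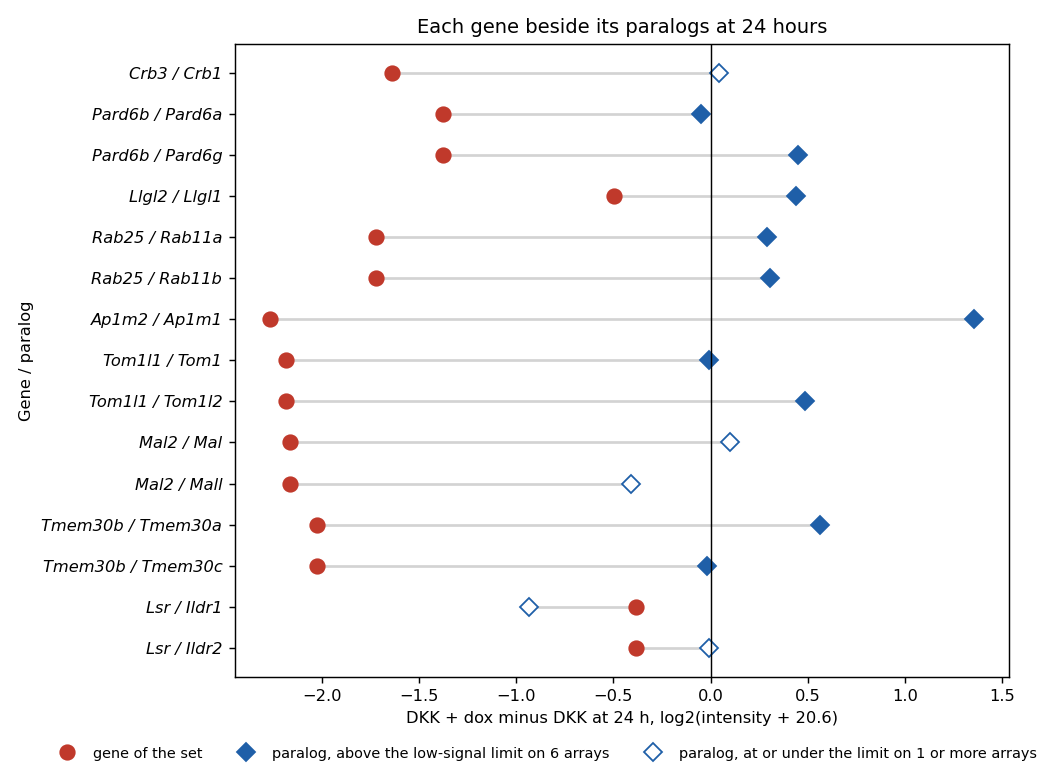
DKK + dox minus DKK at 24 hours as log2(intensity + 20.6) for each gene (red circle) and its paralog (blue diamond, open where the paralog did not exceed the low-signal limit on 1 or more arrays). The widest pair is Ap1m2 at -2.27 and Ap1m1 at 1.36, and Lsr with Ildr1 is the only pair in the other order.

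The machinery around these genes did not move in a body. Of 121 other genes of apical polarity and polarized trafficking, listed by function in 11 groups, 109 were tested: 14 fell, 14 rose and 81 did not pass. Each direction is 12.8% of the genes tested, beside 6.38% fallen and 8.32% risen over all genes, and the median fitted difference was 0.01 in the lists and 0.01 over all genes.

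Among the genes listed under the 3 core polarity complexes 0 fell and 2 rose, too few to set against the shares over all genes. These lists leave out the genes described above, Crb3, Pard6b and Llgl2 among them, and their paralogs, so the counts do not cover the whole complexes. Of 6 Crumbs complex genes tested 0 fell, and Mpdz, a multi-PDZ scaffold, rose by 0.74 ± 0.13 (SE, adjusted p = 0.0117 from limma). Of 11 genes tested in the Par complex list 0 fell, and Tiam1, a Rac exchange factor that binds Par3, rose by 0.76 ± 0.16 (SE, adjusted p = 0.0211 from limma). That list also holds the Mark kinases and Stk11, which are not part of the complex of Par3, Par6 and atypical protein kinase C. Both calls were lost with the mean of all probe sets, at 0.36 for Mpdz and 0.45 for Tiam1 (adjusted p = 0.201 and 0.235 from limma), and without the 24 hour pair, at 0.68 and 0.36 (0.232 and 0.548). Prkcz, an atypical protein kinase C picked out after its values were seen, read 88.5, 48.0 and 79.1 in DKK + dox against 117.0, 137.5 and 147.2 in DKK and was not called, at a fitted -1.09 (adjusted p = 0.0521 from limma). All 8 Scribble complex genes and all 9 exocyst genes tested failed to pass in either direction. So did all 9 tested in the VHS domain sorting list, which also holds Tollip, Cltc and Tsg101, genes of sorting without a VHS domain.

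Genes of endosomal recycling and fusion moved both ways. In the Rab11 recycling list 3 of 19 fell and 4 rose. Rab3ip, the exchange factor Rabin8 that activates Rab8, fell by a fitted 1.18 on the log2 scale, and Myo5a, an actin motor of vesicles, fell by 0.70 (adjusted p = 0.00637 and 0.0238 from limma). Measured differences of Rab3ip were -0.97 at 12 hours and -0.98 at 24 hours. Rab11fip5, a Rab11 effector, rose by 1.23 and Rab8b, a GTPase of exocytic transport, by 0.98 (adjusted p = 0.0102 and 0.00552 from limma). Without the 24 hour pair Rab3ip was at -1.81 (0.0139), and Myo5a (-1.14, 0.0572) and Rab11fip5 (1.10, 0.218) were no longer called. Myo5a was also lost without the 6 hour pair (0.0579) and with the mean of its probe sets (0.0736), which gave 0.52 for Rab8b (0.0551). The other 3 called genes of this list, outside the naming rule and named after their values were seen, were Ehd4, which fell, and Rab13 and Rab14, which rose. Of 9 docking and fusion genes, the vesicle SNARE Vamp8 fell by 0.94 and the vesicle SNARE Vamp7 rose by 0.77 (adjusted p = 0.0124 and 0.0136 from limma), and neither was called without the 24 hour pair (-0.31 and 0.96, adjusted p = 0.484 and 0.125).

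Partners of the sorting genes also moved both ways. In the AP-1 adaptor list 1 of 8 fell and 1 rose. Ap1s3, a small sigma subunit of AP-1, read 279.7, 260.8 and 329.9 in DKK + dox, against 354.2, 780.3 and 871.4 in DKK. In DKK it was higher at each later time. In DKK + dox it was lower at 12 hours and higher at 24 hours than at 6 hours. Ap1s3 fell by 1.66 ± 0.27 (SE, adjusted p = 0.00891 from limma), while Ap1s1, another sigma subunit, rose by 0.47 (adjusted p = 0.0478 from limma). Measured differences of Ap1s3 were -1.51 at 12 hours and -1.35 at 24 hours. Without the 24 hour pair its fit was at -2.67 (adjusted p = 0.0171 from limma). The call of Ap1s1 was lost under 9 alternatives, among them an offset of 1 (0.0507), quantile normalization (0.0571) and each left-out time (0.0936, 0.0939 and 0.268). Of 9 P4-ATPase flippases, the family that Tmem30 proteins accompany, Atp10a and Atp11b fell by 0.83 and 0.71 and Atp10d and Atp8b2 rose by 1.45 and 0.63 (adjusted p between 0.00563 and 0.021 from limma). None of these 4 was called without the 24 hour pair, with fitted values of -0.89, -0.93, 0.77 and 0.69 in that order (adjusted p = 0.21, 0.0841, 0.273 and 0.216). Atp10a was also lost without the 6 hour pair (0.0561) and Atp8b2 with the mean of its probe sets (0.107).

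The MARVEL list, the family of Mal2, had 4 of 11 genes fall and 2 rise. Marveld2, which encodes the tricellulin that Lsr recruits, read 43.0, 50.5 and 87.1 in DKK + dox, against 90.2, 334.0 and 431.0 in DKK. Every DKK + dox array was below every DKK array, and the fitted difference was -2.61 ± 0.41 (SE, adjusted p = 0.0079 from limma), beside measured differences in Lsr itself of -0.38 at most. The fit exceeds the measured differences of Marveld2, -2.32 at 12 hours and -2.07 at 24 hours, and was -4.35 without the 24 hour pair (0.0101). Cmtm8 fell by 1.39 and Cmtm3 and Marveld1 rose by 1.94 and 0.88 (adjusted p = 0.022, 0.0022 and 0.0169 from limma). Without the 24 hour pair Cmtm8 was at -2.28 and no longer called (0.0631), and Marveld1 was at 1.52 (0.0189). The other 2 called genes, Cmtm4 and Plp2, fell and were named after their values were seen.

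In the apical membrane list 3 of 10 fell and 2 rose. Ezr, which encodes ezrin, the linker of apical microvilli to actin, read 1239.6, 600.3 and 693.6 in DKK + dox, against 1758.6, 2043.5 and 2348.4 in DKK. It fell by a fitted 2.07 ± 0.26 (SE, adjusted p = 0.00387 from limma), more than its measured differences of -1.73 at both 12 and 24 hours. Its relatives moved the other way, Msn (moesin) by 0.57 and Rdx (radixin) by 0.33 (adjusted p = 0.0207 and 0.0335 from limma). Podxl, the apical sialomucin podocalyxin, read 175.0, 132.5 and 182.6 in DKK + dox against 338.2, 496.1 and 557.2 in DKK and fell by a fitted 1.98 ± 0.34 (SE, adjusted p = 0.0108 from limma). Its measured differences were smaller, -1.755 at 12 hours and -1.51 at 24 hours. Without the 24 hour pair Ezr was at -3.17 and Podxl at -3.51 (0.0082 and 0.00715), and Msn at 0.67 and Rdx at 0.19 were no longer called (0.187 and 0.533). Rdx was also lost without the 6 hour pair (0.0543) and with the mean of its probe sets (0.122). Slc9a3r1, the ezrin-binding scaffold NHERF1, also fell and was named after its values were seen. Most calls depend on the form of the model: of the 28 in the lists, 0 were made again with the same difference assumed at the 3 times, 3 with time as a line, 3 with no intensity trend in the variance and 9 without the 24 hour pair of arrays. Of the 4 among paralogs, 0, 1, 1 and 1 were made again. Cmtm3 and Ap1m1 are the 2 of these 32 genes that lost the call under the constant difference alone.

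**Figure D5:**
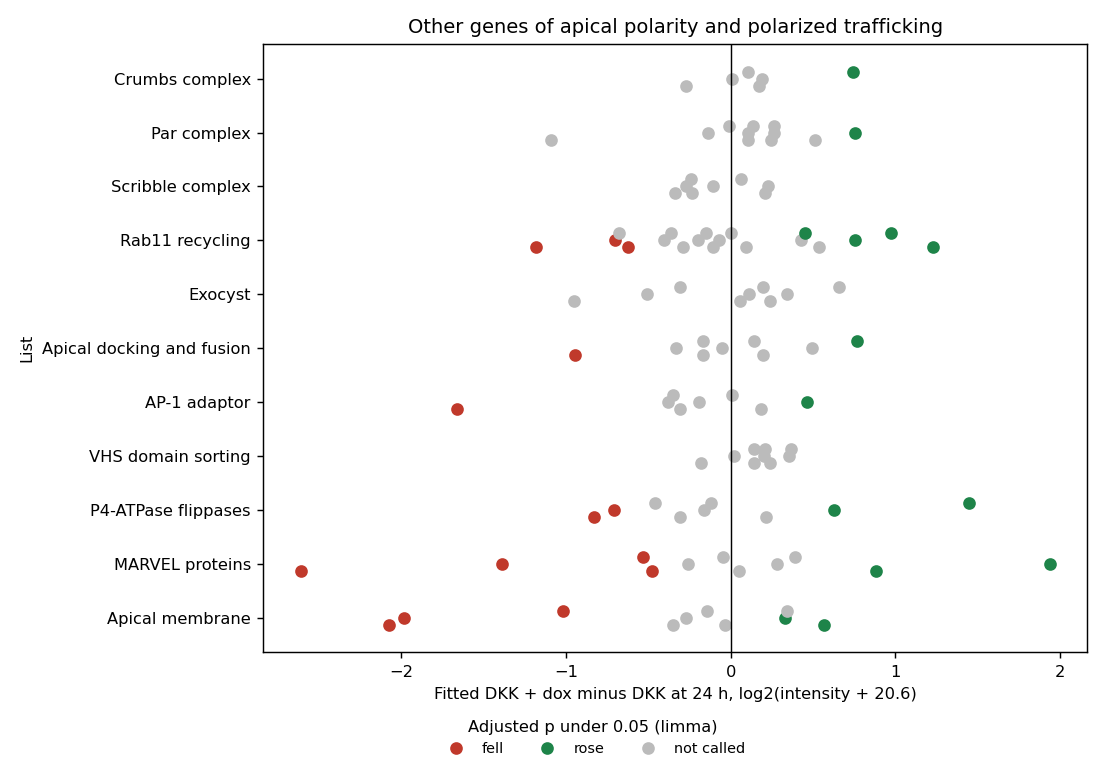
Fitted DKK + dox minus DKK difference at 24 hours as log2(intensity + 20.6) for 109 genes in 11 functional lists, each point a gene, red where it fell, green where it rose and grey where it did not pass an adjusted p of 0.05 (limma). Most points are grey and lie on either side of 0, and the red points farthest left are Marveld2, Ezr and Podxl.

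E-boxes were not particular to the genes of these lists that fell. Of those with a promoter window, 5 of 12 that fell, 2 of 11 that rose and 27 of 67 that did not pass held at least 1 box, and 0 of the 12 that fell held 2 or more. Over all genes tested with a window, the shares with at least 1 box were 38.2% of 752 that fell, 13.2% of 986 that rose and 22.0% of 10069 that did not pass. With 2 or more boxes they were 8.51%, 1.01% and 3.17% in the same order. These shares leave in the 7 genes described that have a window, with Crb3, Ap1m2, Tmem30b and Lsr counted among those that fell. Nothing is read from that count for the genes described. Of the 7 genes outside the set that held 4 or more boxes and were tested, 1 fell (Cel, a lipase), 0 rose and 6 did not pass.

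E-cadherin was among the genes whose course over the arrays was most like that of the set. Each gene's log2 values were centred and averaged, and the 3413 other genes with a range of at least 1 on the log2 scale were ranked by Pearson correlation with that mean over the 6 arrays. The 5 nearest were Atp6v0e2, a V-ATPase subunit (r = 0.9964), Bspry (0.994), Wfdc2, a secreted whey acidic protein domain protein (0.9932), H2-K1, a class I histocompatibility antigen (0.9905), and Cdh1, E-cadherin (0.9902). The 6 points are the same arrays for every gene, so these values describe likeness on them and carry no test. Among the 9 genes, agreement with their own mean was closest for Tmem30b (0.986) and Mal2 (0.983) and weakest for Lsr (0.646) and Llgl2 (0.472).

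Cdh1 read 3464.5, 2867.6 and 3063.4 in DKK + dox, against 4480.8, 5957.1 and 6221.7 in DKK, with differences of -0.37, -1.05 and -1.02. The Snai1 probe set was under the low-signal limit on all 6 arrays and does not check the labels. Of 6 epiblast and ESC markers 3 fell (limma): Fgf5, at 106.2, 174.9 and 540.5 in DKK + dox against 354.4, 1244.1 and 1820.7 in DKK (adjusted p = 0.0298), Sox2 (0.0349) and Dnmt3b (0.0128). Their sizes were unlike, with fitted differences of -2.63 for Fgf5, -0.32 for Sox2 and -0.29 for Dnmt3b. The other 3 did not pass, with fitted differences of -0.11 for Pou5f1, -0.35 for Nanog and -0.62 for Otx2. The list summed to 22290, 22015.8 and 24053 in DKK + dox and 24063, 27065.8 and 28919.4 in DKK. Other cell types that embryoid bodies can hold were read from fixed marker lists. Visceral endoderm, an epithelium with strong apical traffic, had a summed intensity of 1085.8, 468.8 and 555.7 in DKK + dox and 1202.8, 441.8 and 440.6 in DKK over 7 markers, with Afp under the limit on every array and 0 of 5 tested markers called (limma). Parietal endoderm markers summed to between 3619 and 5245.4 in DKK + dox and between 2993.6 and 3698 in DKK, with 3 of 6 risen, and 7 of 8 mesenchymal genes rose. The 6 trophectoderm markers summed to between 279.2 and 732.8 in DKK + dox and between 278.7 and 402.7 in DKK, the 8 feeder fibroblast markers to between 1102.5 and 1485.4 in DKK + dox and between 932.4 and 1921.1 in DKK, and 0 of 5 tested markers passed the test in each list (limma). In the trophectoderm list Eomes, picked out after its values were seen, read 587.8 in DKK + dox against 188.1 in DKK at 24 hours (adjusted p = 0.0655 from limma). The part of these cells in the values of the 9 genes was not tested.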

How the data were processed

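The deposited values are linear intensities of 6 Affymetrix MOE430_2.0 arrays, which the authors normalized and modeled with dChip; its version is not given in the sources used here. Array medians lay between 53.55 and 63.68, and 37.46 to 41.34% of probe sets were at or under 37.2. Of 45037 probe sets, 34945 carried 1 symbol in the platform annotation, 932 several and 9160 none; 34741 were matched to RefSeq (GRCm38.p6) and 0 symbols changed. A gene was represented by its brightest probe set on average, and genes above 37.2 on some array were tested. limma 3.58.1 in R 4.3.3 fitted log2(intensity + 20.6) with a level per time and a dox difference proportional to hours (4 coefficients, 2 residual and 5.5 prior degrees of freedom, variance trended on intensity), with Benjamini-Hochberg adjustment at 0.05. Tested on simulated data of 14755 genes with 200 changed, 79% of log2 changes of 1 and 100% of log2 changes of 2 were recovered, and 27 unchanged genes were called. The number of arrays limits the precision.

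Named genes are the 9 genes, their paralogs, up to 2 called genes per direction of each list, the 5 most alike profiles, Snai1 and Cdh1. The members, lists, rule and tests were chosen with earlier results of these data known. Alternatives changed the model, the times included, the normalization, the offset, the low-signal filter (1 of these added after seeing the data), the choice of probe set and the fold threshold. Promoter letters came from RefSeq windows. Python 3.11.15 and matplotlib 3.10.9 were used for counting and plotting.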

Additional observations from a re-analysis of the deposited data

How the results depend on the processing

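Under 2 other offsets, 2 other normalizations and the mean of all probe sets, the 9 genes were lower in DKK + dox at 24 hours with 7 of 9 at least 2-fold lower, as at a 1.5-fold threshold; the filters cannot change a gene's own difference. With the mean of all probe sets in place of the brightest, the 24 hour difference was -1.21 for Tom1l1 and -0.08 for Lsr, whose second probe sets are dim. The test across genes depended on its model. The numbers of all genes that fell and rose, 941 and 1227, were 80 and 121 with time as a line, 76 and 209 with no intensity trend, 533 and 793 without the 6 hour pair, and 501 and 229 without the 24 hour pair. With a constant difference in the model they were 0 and 0 (limma, lowest adjusted p 0.0516, with 2927 genes at an unadjusted p under 0.05). The numbers of listed pathway genes that fell and rose, 14 and 14, were 2 and 1 with time as a line, 0 and 0 with the constant difference, 1 and 2 with no intensity trend, and 8 and 3 without the 24 hour pair, and the number that rose was 8 with the mean of all probe sets. The number of paralogs that rose, 4, was 1 with time as a line, 0 with the constant difference, 1 with no intensity trend, 2 without the 6 hour pair and 2 without the 24 hour pair, and 0 paralogs fell in any setting run (limma). Of 446 alternative fits of genes called here, 0 changed sign and 135 lost the call; the cause was not tested. The DKK + dox and DKK arrays of a time were paired in every fit except that with time as a line. Dim probe sets limit what can be read: Mal2 in DKK + dox is known only to lie under the low-signal limit, and 5 paralogs did not exceed it on some arrays.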
